A study of Homo sapiens with 8 samples.

Results

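The genes described here are 8 human genes grouped as phospholipid scramblases and flippases, classes of protein that move phospholipids between the faces of a membrane. They are PLSCR1, PLSCR3 and PLSCR4 of the phospholipid scramblase family, the scramblases ANO6 and XKR8, the flippase ATPases ATP11A and ATP11B, and the flippase subunit TMEM30A. They were picked by name from 58884 gene identifiers, with their levels in these libraries and their treated over control ratios already known, above all the opposite ratios of PLSCR4 and ANO6 after siRNA. Their values are therefore a description and carry no test. All 8 were measured, and 7 passed a filter on low values (a mean of at least 1 TPM, a read count normalised for gene length and depth, over all libraries), with PLSCR3 below it.

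The study altered NR1D1, which encodes the nuclear receptor REV-ERB alpha of the circadian clock, in 4 established human thyroid cancer cell lines, and sequenced total RNA from 8 libraries, 1 per group. The anaplastic lines 8505C and CAL-62 were each sequenced as a library labelled siControl (genotype WT) and a library labelled siNR1D1 (NR1D1 knockdown). The papillary line TPC-1 and the follicular line FTC-133 each gave a library labelled Vector (genotype WT) and a library labelled NR1D1 (NR1D1 overexpression). The sources used here do not state the siRNA sequence, the promoter of the vector, whether cells were pooled or clonal, or when they were harvested. No group had a replicate library, so each approach rests on 2 lines, and approach and line cannot be told apart. Throughout, a change is a log2 ratio of treated over control on the log2(TPM + 1) scale, which understates the change of low genes, and a ratio in TPM comes with a 95% exact interval on read numbers recovered from the values, which covers counting error only.

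A healthy cell keeps phosphatidylserine on the inner leaflet of its plasma membrane. Flippases of the P4-ATPase family, most of which need the subunit TMEM30A (also called CDC50A) to leave the endoplasmic reticulum, spend ATP to return it there. Scramblases let lipids pass both ways once switched on: ANO6 by calcium, and XKR8 by caspase cleavage. Phosphatidylserine on the outer face then serves as a platform for clotting factors and as a signal for uptake of dying cells.

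After NR1D1 siRNA, PLSCR4 was more than 2-fold higher and ANO6 more than 2-fold lower in both siRNA lines. PLSCR4 went from 23.49 TPM to 235.5 TPM in 8505C and from 5.17 TPM to 23.5 TPM in CAL-62, and it was lower with the NR1D1 vector in both vector lines. ANO6 went from 77.9 TPM to 13.2 TPM in 8505C and from 71.05 TPM to 12.7 TPM in CAL-62, and differed little between the vector libraries. XKR8 was higher after siRNA in both siRNA lines and went opposite ways in the vector lines. The flippase genes differed less, apart from ATP11A in 8505C and TMEM30A in the vector lines.

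NR1D1 itself was lower in the siNR1D1 library of both siRNA lines. It was 18.2 and 11.2 TPM in the siControl and siNR1D1 libraries of 8505C, a ratio of 0.616 (0.499 to 0.759), and 21.97 and 10.1 TPM in those of CAL-62, a ratio of 0.462 (0.383 to 0.554). The vector lines held far more of it: 189.95 TPM with Vector and 208.7 with NR1D1 in TPC-1, a ratio of 1.10 (1.05 to 1.15), and 105.4 and 136.9 TPM in FTC-133, a ratio of 1.30 (1.21 to 1.40). Both vector ratios were nearer to 1 than the siRNA ratios, and the sources used here do not state which exons the vector carries. THRA overlaps NR1D1 on the other strand, and the sources used here do not say whether counting used strand.

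Recovered totals ran from 12.9e6 to 23.2e6 reads a library. The share of TPM from the mitochondrial genome was 57.2% in CAL-62 siControl and 67.8% in CAL-62 siNR1D1, beside 15.7% to 29.3% in the other 6 libraries, and the median log2 ratio of all 17595 genes tested was -0.22 in CAL-62 beside 0.03, 0.00 and 0.03 in 8505C, TPC-1 and FTC-133. Without mitochondrial genes the CAL-62 median was 0.04, so the CAL-62 log2 ratios of the 7 genes past the filter are also given on that scale. Values of other genes are given as scaled to a sum of 1000000. The thyroid differentiation genes TG and SLC5A5 were at or below 0.69 TPM in every library. The thyroid transcription factor gene PAX8 was between 53.75 and 330 TPM in the other lines and 0.50 TPM in both 8505C libraries, while NKX2-1 was present in 8505C and FTC-133 and listed at 0 in CAL-62 and TPC-1. The leukocyte marker PTPRC was at or below 0.06 TPM in every library.

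**Figure D1:**
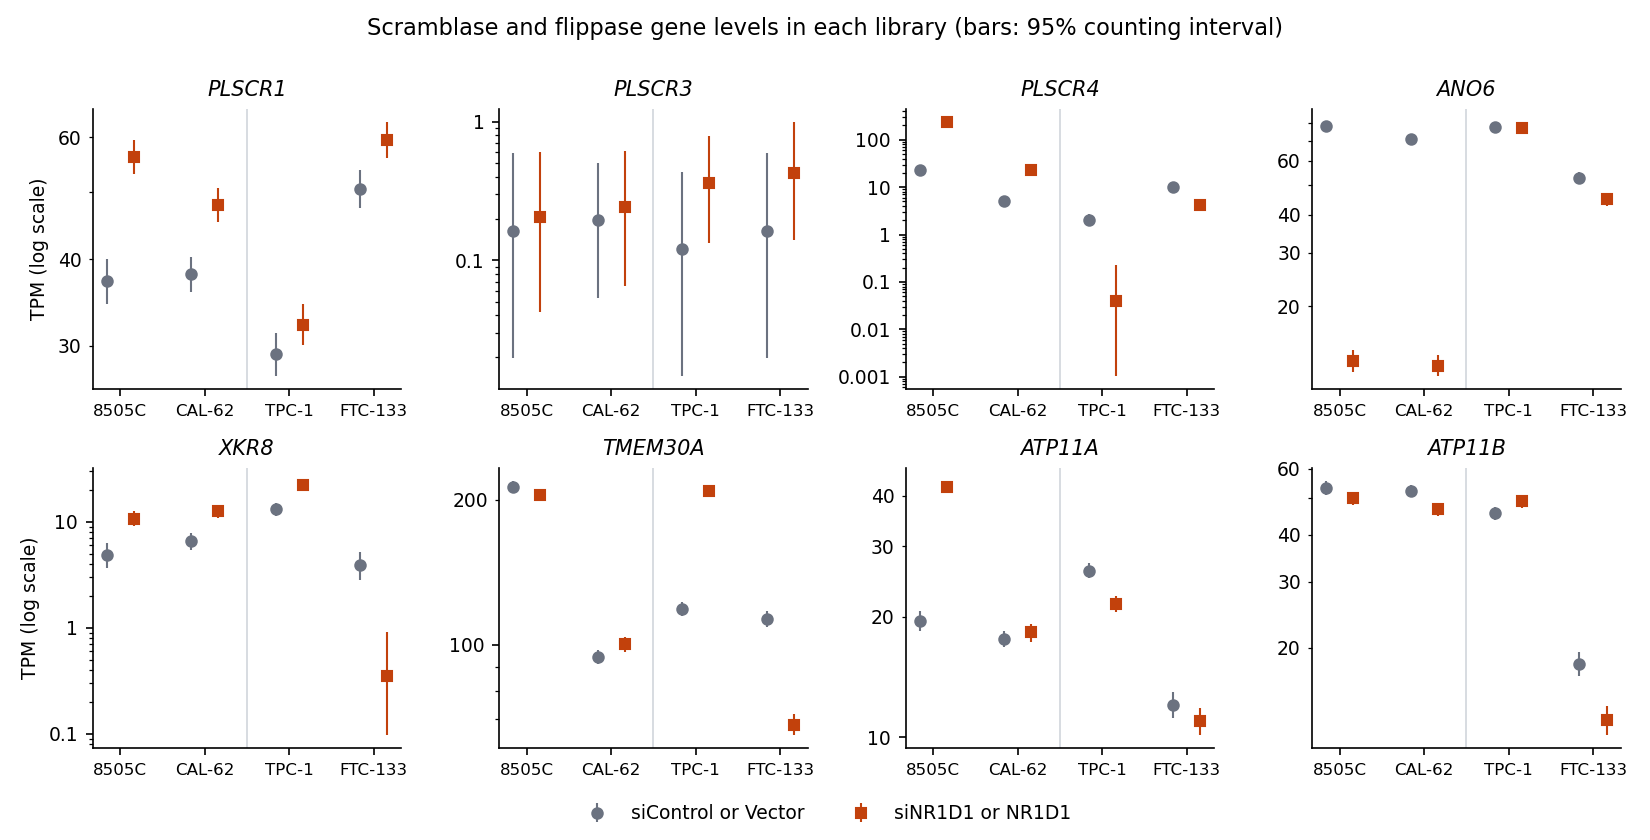
Level of each gene in TPM (log scale, a separate range per gene) in the control library (grey circle) and the treated library (orange square) of each line; bars are 95% counting intervals from recovered reads and hold no biological spread. In 8505C and CAL-62 the siNR1D1 library lies above its control for PLSCR4 and below it for ANO6, and PLSCR3 is at or below 0.43 TPM in all 8 libraries.

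PLSCR4 encodes a single-pass membrane protein of the phospholipid scramblase family. Its gene lies on chr3:146192339-146251179 (GRCh38, minus strand), and none of its exon bases were shared with another gene. As scaled here, the control libraries ordered it as 8505C at 23.49 TPM, FTC-133 at 10.3, CAL-62 at 5.17 and TPC-1 at 2.06. The counting intervals of neighbours did not overlap. The mitochondrial share was 17.4% in FTC-133 Vector and 57.2% in CAL-62 siControl, so the gap between these lines depends on scaling. The siNR1D1 libraries held 235.5 TPM in 8505C and 23.5 TPM in CAL-62. The NR1D1 libraries held 4.19 TPM in FTC-133 and 0.040 TPM in TPC-1. Every siNR1D1 library was thus above its own control and every NR1D1 library below it. As scaled here, the CAL-62 siNR1D1 library stood at the level of 8505C siControl. The mitochondrial share was 67.8% in the former and 29.3% in the latter, so this match depends on scaling. In ratios, PLSCR4 was 10.03 times its control in 8505C (9.09 to 11.1) and 4.55 times in CAL-62 (3.81 to 5.47), log2 ratios of 3.27 and 1.99. With the vector it was 0.408 of its control in FTC-133 (0.307 to 0.538), a log2 ratio of -1.12. In TPC-1 the NR1D1 library had 1 recovered read beside 51 in the Vector library, a ratio of 0.0196 (0.000486 to 0.114) and a log2 ratio of -1.55. The CAL-62 log2 ratio was 2.50 without mitochondrial genes, and those of TPC-1 and FTC-133 were -0.59 and -0.83, under 2-fold, when the values were taken as deposited, on a smaller scale beside the same pseudocount.

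ANO6, also known as TMEM16F, is the calcium-activated scramblase that exposes phosphatidylserine on platelets and whose loss causes the bleeding disorder Scott syndrome. The gene lies on chr12:45215987-45440404 (plus strand), with 55 of 8235 exon bases shared with PLEKHA8P1 on the other strand. As scaled here, control levels were 77.9 TPM in 8505C, 77.6 in TPC-1, 71.05 in CAL-62 and 52.7 in FTC-133. The intervals of 8505C and TPC-1 overlapped. The mitochondrial share was 57.2% in CAL-62 siControl and 17.4% to 29.3% in the other controls, so the spread across lines depends on scaling. The siNR1D1 libraries held 13.2 TPM in 8505C and 12.7 TPM in CAL-62, the lowest of all 8. The ratio was 0.170 (0.155 to 0.186) in 8505C and 0.179 (0.165 to 0.195) in CAL-62, log2 ratios of -2.47 and -2.39, and -2.04 in CAL-62 without mitochondrial genes. ANO6 was 77.1 TPM in TPC-1 and 44.8 TPM in FTC-133 with the NR1D1 vector, ratios of 0.994 (0.949 to 1.04) and 0.850 (0.794 to 0.910). The log2 ratios in the vector lines were -0.01 and -0.23, and the sign in TPC-1 flipped to 0.02 and 0.03 under other scalings. ANO6 was lower after siRNA, where NR1D1 was lower, and was not higher in either NR1D1 library.

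**Figure D2:**
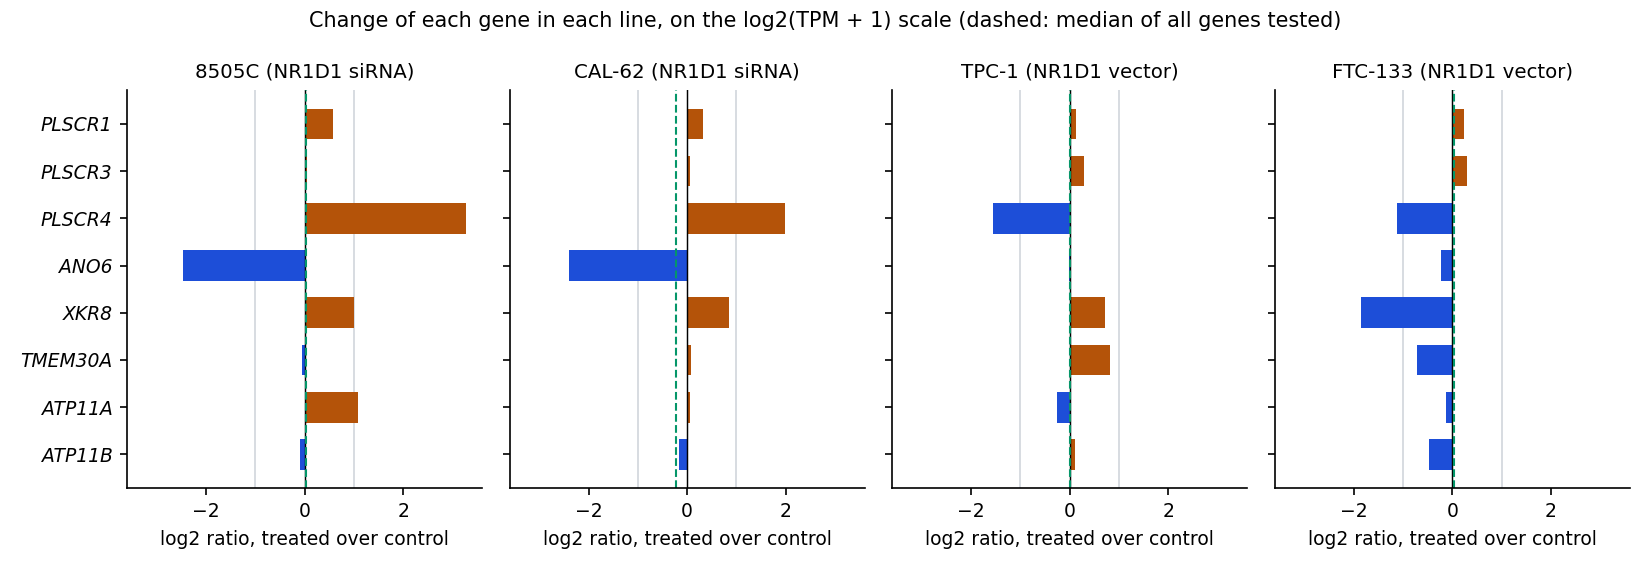
Log2 ratio of treated over control for each gene (bars, orange above 0 and blue below) in each of the 4 lines; grey lines mark a 2-fold change and the dashed line the median of all 17595 genes tested, which is -0.22 in CAL-62. PLSCR4 is at 3.27 and 1.99 in the siRNA lines and at -1.55 and -1.12 in the vector lines, ANO6 at -2.47 and -2.39 and then near 0.

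Among the 5 scramblase genes in 8505C, ANO6 had the most TPM in siControl and PLSCR4 in siNR1D1. These are RNA levels, and lipid movement was not measured. The ratio of PLSCR4 to ANO6, in TPM, was 0.301 in the siControl library of 8505C and 17.8 in the siNR1D1 library, and 0.0727 and 1.84 in those of CAL-62. It was 0.0265 with Vector and 0.00052 with NR1D1 in TPC-1, and 0.195 and 0.0935 in FTC-133. Of the summed TPM of the 5 scramblase genes, PLSCR4 made up 16.4% and then 74.6% in 8505C and 4.27% and then 24.2% in CAL-62. ANO6 made up 54.3% and then 4.19% in 8505C and 58.7% and then 13.1% in CAL-62, but 63.6% and 58.6% in TPC-1 and 44.8% and 41.0% in FTC-133. The sum itself went from 143.6 TPM to 315.9 TPM in 8505C and from 121.0 TPM to 97.0 TPM in CAL-62. On the scale without mitochondrial genes it went from 203.05 to 442.5 in 8505C and, turning the direction in CAL-62, from 282.8 to 301.7 there. In bulk RNA, fewer cells with a transcript and less of it per cell cannot be told apart.

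**Figure D3:**
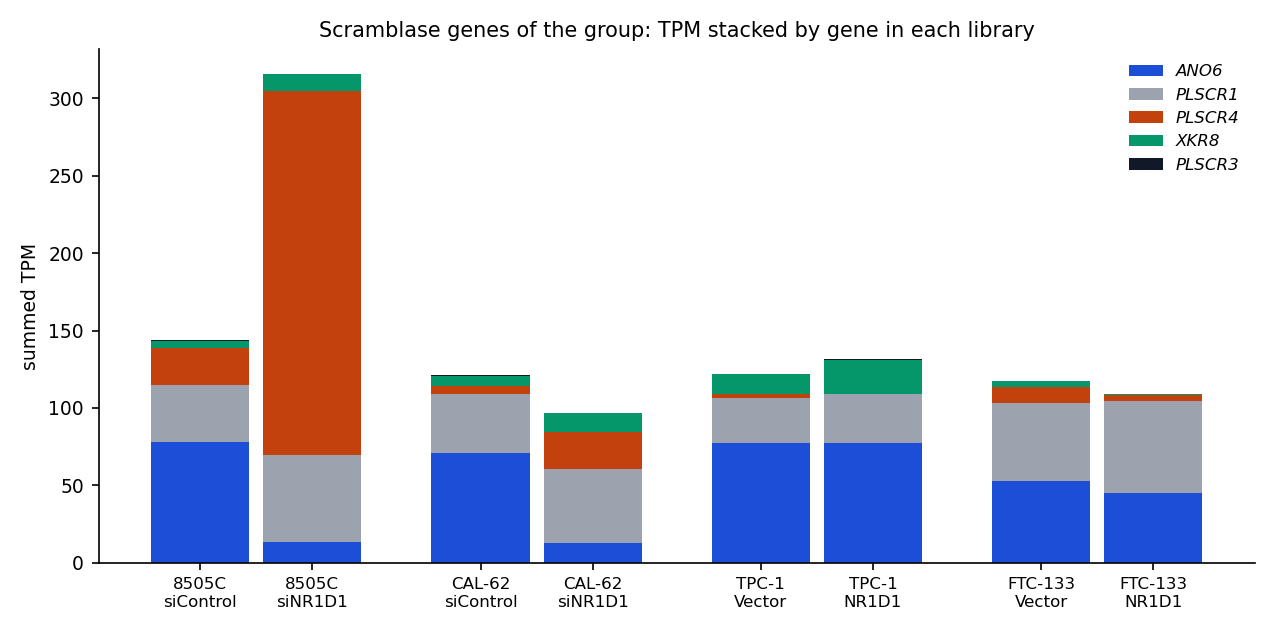
Summed TPM (linear axis from 0) of the 5 scramblase genes in each library, stacked by gene. ANO6 makes up 41.0% to 63.6% of the sum in every library except the siNR1D1 libraries, where it makes up 4.19% and 13.1%.

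PLSCR1, an interferon-induced scramblase family member with a role in antiviral defence, was higher in the treated library of every line, by less than 2-fold. It lies on chr3:146515180-146544864 (minus strand) and shares no exon bases with another gene. As scaled here, the control libraries held 50.5 TPM in FTC-133, 38.0 in CAL-62, 37.2 in 8505C and 29.2 in TPC-1. The intervals of CAL-62 and 8505C overlapped. The mitochondrial share was 57.2% in CAL-62 siControl and 17.4% to 29.3% in the other controls, so this order and this overlap depend on scaling. The treated libraries held 56.2 TPM in 8505C, 48.0 in CAL-62, 32.2 in TPC-1 and 59.5 in FTC-133. The ratios were 1.51 (1.38 to 1.66), 1.26 (1.16 to 1.37), 1.10 (0.998 to 1.22) and 1.18 (1.08 to 1.29), and the TPC-1 interval includes a ratio of 1. The CAL-62 log2 ratio of 0.33 was 0.58 with a trimmed mean of M values and 0.74 without mitochondrial genes. Interferon-stimulated genes as a list of 34, with 31 tested, had median log2 ratios of 0.37, 0.57, 0.28 and 0.39 in 8505C, then CAL-62, TPC-1 and FTC-133, beside 0.03, -0.22, 0.00 and 0.03 over all genes tested. IFIT1, an interferon-induced RNA-binding protein gene, went from 22.8 TPM to 56.5 TPM in 8505C and from 4.46 TPM to 9.71 TPM in CAL-62. The summed level of the list was 637.8 and 764.2 TPM in 8505C, 459.4 and 526.9 in CAL-62, 447.3 and 530.7 in TPC-1 and 1082 and 1403 in FTC-133, control first. At an unadjusted p, 4 of 31 were higher and 1 lower after siRNA, beside 4.5% and 7.52% of all genes tested. The part of this list in the PLSCR1 values was not tested.

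The sequence upstream of PLSCR1 is shown because the searched core of an interferon response element, GAAANNGAAA on either strand, occurred there. That pattern was in 3.57% of 35116 RefSeq windows (GRCh38.p14) that run from 250 bases before to 50 bases after a transcription start. Among the 6 genes of the group with a window in that table (PLSCR1, PLSCR3, PLSCR4, ANO6, XKR8 and ATP11A), only the windows of PLSCR1 held it. The nuclear receptor half-site AGGTCA, in 13.8% of all windows, occurred once in the ATP11A window and in no other window of the group, and the E-box CACGTG, in 7.26%, occurred in none. A match is a description of letters and not a bound site. The 250 bases before the first annotated PLSCR1 start, on the minus strand at chr3:146544608-146544857, read 5′ to 3′ as follows, with the matched letters in capitals.
PLSCR1 upstream: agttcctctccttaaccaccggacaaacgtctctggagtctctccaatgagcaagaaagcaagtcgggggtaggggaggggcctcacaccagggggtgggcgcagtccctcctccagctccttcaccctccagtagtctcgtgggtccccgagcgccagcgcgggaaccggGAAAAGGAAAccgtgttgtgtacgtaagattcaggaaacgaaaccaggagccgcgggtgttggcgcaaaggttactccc

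XKR8 encodes the scramblase that caspases switch on in apoptosis. The gene lies on chr1:27959462-27968096 (plus strand). As scaled here, controls held 13.1 TPM in TPC-1, 6.55 in CAL-62, 4.81 in 8505C and 3.87 in FTC-133. The intervals of the last 3 overlapped with their neighbours. With a mitochondrial share of 57.2% in CAL-62 siControl, the distance of CAL-62 from the other controls depends on scaling. The siNR1D1 libraries held 10.7 TPM in 8505C and 12.5 TPM in CAL-62, ratios of 2.22 (1.63 to 3.07) and 1.91 (1.53 to 2.41). The NR1D1 library of TPC-1 held 21.97 TPM, a ratio of 1.68 (1.41 to 2.01). That of FTC-133 held 0.35 TPM from 4 recovered reads beside 46 in its control, a ratio of 0.0915 (0.0239 to 0.2505). XKR8 was thus higher in the treated library of 3 lines and lower in that of FTC-133. Its log2 ratios were 1.01, 0.84, 0.71 and -1.85, and the first 2 lie on either side of the 2-fold line: scaled by a trimmed mean of M values they were 0.95 and 1.10, and without mitochondrial genes CAL-62 stood at 1.29.

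PLSCR3, the mitochondrial member of the family, was barely detected. It rested on 2 to 6 recovered reads in each library and was between 0.12 and 0.43 TPM. Its gene lies on chr17:7389727-7394843 (minus strand), and 2163 of its 2834 exon bases are shared, on the same strand, with the readthrough gene TMEM256-PLSCR3. The readthrough gene was itself at or below 0.38 TPM, and the sources used here do not say how reads in shared bases were counted. The level of PLSCR3 is therefore uncertain, and no fold is read from it.

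TMEM30A, the subunit shared by most P4-ATPases, was the most abundant gene of the group per unit length in every library except the siNR1D1 library of 8505C, where PLSCR4 exceeded it. It lies on chr6:75252924-75284968 (minus strand). As scaled here, controls held 213.0 TPM in 8505C, 118.75 in TPC-1, 113.05 in FTC-133 and 94.5 in CAL-62, with TPC-1 and FTC-133 overlapping. The mitochondrial share was 57.2% in CAL-62 siControl and 17.4% to 29.3% in the other controls, so the place of CAL-62 depends on scaling. After siRNA TMEM30A was 204.3 TPM in 8505C and 100.3 TPM in CAL-62, ratios of 0.959 (0.922 to 0.998) and 1.06 (1.01 to 1.11). With the vector it was 209.0 TPM in TPC-1 and 68.3 TPM in FTC-133, ratios of 1.76 (1.69 to 1.83) and 0.604 (0.566 to 0.645). The CAL-62 log2 ratio of 0.08 was 0.33 with a trimmed mean of M values and 0.50 without mitochondrial genes. The vector libraries went opposite ways, higher in TPC-1 and lower in FTC-133.

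ATP11A, a flippase ATPase of the plasma membrane that caspases inactivate, lies on chr13:112690329-112887168 (plus strand). As scaled here, controls held 26.1 TPM in TPC-1, 19.5 in 8505C, 17.6 in CAL-62 and 12.04 in FTC-133, with 8505C and CAL-62 overlapping. The mitochondrial share was 57.2% in CAL-62 siControl, so this overlap and the place of CAL-62 depend on scaling. The 8505C siNR1D1 library held 42.1 TPM, a ratio of 2.16 (2.02 to 2.32), and was the highest of the 8 libraries as scaled here. In CAL-62, ATP11A was 18.3 TPM after siRNA, a ratio of 1.04 (0.968 to 1.11). The mitochondrial share was 28.6% in 8505C siNR1D1 and 67.8% in CAL-62 siNR1D1, so the distance between these libraries depends on scaling. The CAL-62 log2 ratio of 0.05 was 0.29 with a trimmed mean of M values and 0.46 without mitochondrial genes. The NR1D1 libraries held 21.5 TPM in TPC-1 and 10.95 TPM in FTC-133, ratios of 0.826 (0.774 to 0.880) and 0.909 (0.815 to 1.01).

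ATP11B, an ATPase of endosomal membranes, lies on chr3:182793500-182921635 (plus strand) and shares 396 exon bases with a gene on the other strand. As scaled here, controls held 53.4 TPM in 8505C, 52.4 in CAL-62, 45.7 in TPC-1 and 18.0 in FTC-133, with the first 2 overlapping. The treated libraries held 50.0, 46.8, 49.1 and 12.8 TPM in that order of lines. CAL-62 siControl had a mitochondrial share of 57.2%, so its place among the controls and its overlap with 8505C depend on scaling. The ratios were 0.936 (0.883 to 0.993), 0.892 (0.847 to 0.940), 1.07 (1.02 to 1.13) and 0.709 (0.631 to 0.797). ATP11B was thus within 0.16 log2 units of its control in 3 lines and lower in FTC-133, and in CAL-62 its log2 ratio of -0.16 became 0.09 with a trimmed mean of M values and 0.25 without mitochondrial genes. The summed TPM of the flippase genes TMEM30A, ATP11A and ATP11B was 285.9 and 296.5 in 8505C, 164.5 and 165.3 in CAL-62, 190.5 and 279.6 in TPC-1 and 143.1 and 92.1 in FTC-133, control first. Without mitochondrial genes the CAL-62 sums were 384.5 and 514.2.

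Against all 17595 genes tested, the number of the group's genes past a 2-fold change can be set only as a description, since the group was picked on these ratios. In 8505C, 3 of 7 were 2-fold higher (PLSCR4, XKR8 and ATP11A) beside 10.5% of all genes, and 1 of 7 was 2-fold lower (ANO6) beside 4.67%. In CAL-62, 1 was higher (PLSCR4) beside 4.11% and 1 lower (ANO6) beside 9.41%. In TPC-1, 0 were higher beside 5.22% and 1 was lower (PLSCR4) beside 4.45%. In FTC-133, 0 were higher beside 7.55% and 2 were lower (PLSCR4 and XKR8) beside 5.15%. In both siRNA lines PLSCR4 was 2-fold higher, as were 1.58% of all genes, and ANO6 2-fold lower, as were 1.55%. In both vector lines PLSCR4 was 2-fold lower, as were 0.58% of all genes, and none was 2-fold higher, as were 0.875%. The CAL-62 background depends on scaling: 724 genes were 2-fold higher and 1656 lower as scaled here, 1165 and 1038 with a trimmed mean of M values, and 1866 and 914 without mitochondrial genes.

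The genes whose 4 log2 ratios lay nearest to those of ANO6 were far closer to it than any gene was to PLSCR4. Among 10823 genes with a symbol and a mean of at least 5 TPM, GTF2E1, a subunit of the general transcription factor TFIIE, lay nearest to ANO6 with a root mean square difference of 0.168 over 4 lines, followed by UBAC2 at 0.169, SELENOT at 0.236, BAG6 at 0.342 and PGAM1 at 0.418. SELENOT, a selenoprotein of the endoplasmic reticulum, went from 114.1 TPM to 24.6 TPM in 8505C and from 101.9 TPM to 14.5 TPM in CAL-62, and from 206.3 TPM to 194.8 TPM in TPC-1 and from 45.4 TPM to 41.1 TPM in FTC-133. The nearest to PLSCR4 were G0S2 at 0.813, MIR125B1 at 0.852, TMEM64 at 0.857, TMEM87B at 0.898 and EMP2 at 0.917. MIR125B1, a microRNA gene, was listed at 0 in both FTC-133 libraries, in 8505C siControl and in TPC-1 NR1D1, so its ratios rest on low values. G0S2, an inhibitor of adipose triglyceride lipase, went from 11.1 TPM to 85.2 TPM in 8505C and from 112.35 TPM to 230.9 TPM in CAL-62, and from 2053 TPM to 1552 TPM in TPC-1 and from 1314 TPM to 440.9 TPM in FTC-133. TMEM87B, by contrast, had log2 ratios of 2.96 and 2.55 in the siRNA lines but 0.06 and -0.65 in the vector lines.

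A 7-base pattern in 3′ UTRs is shown because ANO6 holds it more than once. Over 12455 genes with an annotated 3′ UTR (GENCODE 29, GRCh38), 15952 heptamers with at least 100 carriers were ranked. The measure was how much lower their carriers were, after allowance for UTR length, GC content and expression. That difference was divided by a standard error that is smaller for heptamers with more carriers. The siRNA line with the weaker effect by this measure set the rank, and ATGAGCA ranked first. Its 1419 carriers (11.39%) had a median log2 ratio of -0.13 in 8505C beside 0.07 for the other genes, and -0.31 in CAL-62 beside -0.29. The adjusted difference of means was -0.15 in 8505C and -0.09 in CAL-62, and -0.02 and -0.01 in TPC-1 and FTC-133. Among the 8 genes, ANO6 had 2 matches and ATP11A had 1, and PLSCR4 had 0 in 2072 bases. UBAC2 and SELENOT of the genes nearest to ANO6 also carried it, with 2 and 1 matches, while GTF2E1, BAG6 and PGAM1 did not. Carriers went both ways in 8505C. ATP11A was 2-fold higher there, while 2 carriers of the wider pathway, ATP10D with 2 matches and ABCA1 with 1, had log2 ratios of -1.37 and -0.27. In CAL-62 the log2 ratios of ATP10D and ABCA1 were 0.01 and -0.36. The heptamer was picked on these same libraries, the sources used here do not state the siRNA sequence, and the heptamer's part in the ANO6 values was not tested. The sites below are 30 bases each, with the heptamer in capitals: both ANO6 sites (chr12:45432148-45432177 and chr12:45432305-45432334, plus strand) and the ATP11A site (chr13:112882812-112882841, plus strand).
ANO6 site 1: ggtaaaaatgtATGAGCAgcttaactgaag
ANO6 site 2: cttttataattATGAGCAttttaataaatt
ATP11A site: acttggctgtgATGAGCAgacatcctctgt

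PLSCR4 and PLSCR1 belong to a run of scramblase family genes on chromosome 3. The neighbour PLOD2 had the direction of PLSCR4 in 8505C, CAL-62 and FTC-133 and the other direction in TPC-1. PLOD2, a collagen lysyl hydroxylase gene beside PLSCR4 at chr3:146069440-146163653, had log2 ratios of 0.42, 1.18, 0.73 and -0.45 in 8505C, then CAL-62, TPC-1 and FTC-133. PLSCR2 was at or below 0.20 TPM in every library and PLSCR5 was listed at 0 in all 8. The processed pseudogene PLSCR4P1 was listed at 0 except in 8505C siNR1D1, the library with most PLSCR4, where it stood at 2.69 TPM. The sources used here do not say how reads that match PLSCR4 and its pseudogene alike were counted.

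Of the wider pathway, 87 other genes in 8 lists were examined, and 67 passed the filter on low values. None passed limma's test over all genes in either approach (Benjamini-Hochberg adjusted p under 0.05, two-sided), and neither did any other gene, a background of 0.0% in both. The smallest adjusted p was 0.166 for siRNA and 0.272 for the vector. At an unadjusted p under 0.05, 12 of the 67 were higher and 2 lower after siRNA, beside 4.5% and 7.52% of all genes tested. With the vector, 5 were higher and 1 lower, beside 2.84% and 1.62%. These p-values rest on 2 lines per approach with 2 residual degrees of freedom, and each line counts as 1 observation. The spread was pooled over all 8 libraries and moderated across genes, so the p-values of 1 approach also draw on the lines of the other. With only the siRNA lines in the limma fit, the smallest adjusted p for siRNA was 0.479.

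Among other scramblases, 3 of 13 tested were higher at an unadjusted p after siRNA and 0 lower, beside 4.5% and 7.52% of all genes tested. ANO8, a relative of ANO6 that tethers the endoplasmic reticulum to the plasma membrane, went from 3.70 TPM to 11.6 TPM in 8505C and from 4.23 TPM to 9.98 TPM in CAL-62 (limma adjusted p = 0.277). ANO9 had log2 ratios of 1.63 and 1.09 in the siRNA lines (adjusted p = 0.333), and TMEM63B, a membrane protein related to mechanosensitive channels, had 1.09 and 0.65 (adjusted p = 0.322). ANO1, the calcium-activated chloride channel TMEM16A, went from 1.71 TPM to 19.2 TPM in CAL-62 and was at or below 0.04 TPM in every library of the other lines. The list's median log2 ratio was 0.00 in 8505C and 0.44 in CAL-62, beside 0.03 and -0.22 over all genes tested. In both siRNA lines 2 of the 13 were 2-fold higher (ANO8 and ANO9), beside 1.58% of all genes, and 0 were 2-fold lower, beside 1.55%.

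Among other flippase genes, 9 were tested, and after siRNA ATP8B3 had log2 ratios of 1.15 and 0.41 (limma adjusted p = 0.421), ATP10D had -1.37 and 0.01 (adjusted p = 0.541), and ATP9A had 0.37 and 0.15 (adjusted p = 0.71). In the vector lines 2 of 9 were higher at an unadjusted p and 0 lower, beside 2.84% and 1.62% of all genes tested. The list's median was 0.66 in TPC-1 and 0.37 in FTC-133 beside 0.00 and 0.03 over all genes. ATP9A, an ATPase that works without TMEM30A, went from 15.2 TPM to 25.5 TPM in TPC-1 and from 23.1 TPM to 37.45 TPM in FTC-133 (adjusted p = 1.0).

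Genes that handle exposed phosphatidylserine had 3 of 9 tested higher at an unadjusted p after siRNA and 0 lower, beside 4.5% and 7.52% of all genes tested. MFGE8, the secreted bridge between phosphatidylserine and integrins on phagocytes, was higher in the treated library of all 4 lines, from 15.3 TPM to 31.9 TPM in 8505C, from 42.9 TPM to 95.5 TPM in CAL-62, from 18.3 TPM to 36.6 TPM in TPC-1 and from 84.8 TPM to 221.9 TPM in FTC-133. Its log2 ratios were 1.01, 1.14, 0.96 and 1.38 (limma adjusted p = 0.283 for siRNA and 0.699 for the vector). MERTK, a phagocytic receptor tyrosine kinase, went from 2.17 TPM to 5.25 TPM in 8505C and from 8.86 TPM to 27.9 TPM in CAL-62 (adjusted p = 0.283). Its ligand gene GAS6 had log2 ratios of 1.42 and 0.65 (adjusted p = 0.352). ADGRB1, another phosphatidylserine receptor, had 0.15 and 1.58 (adjusted p = 0.5). The list's medians were 0.74 in 8505C and 0.34 in CAL-62, beside 0.62 in TPC-1 and -0.02 in FTC-133.

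**Figure D4:**
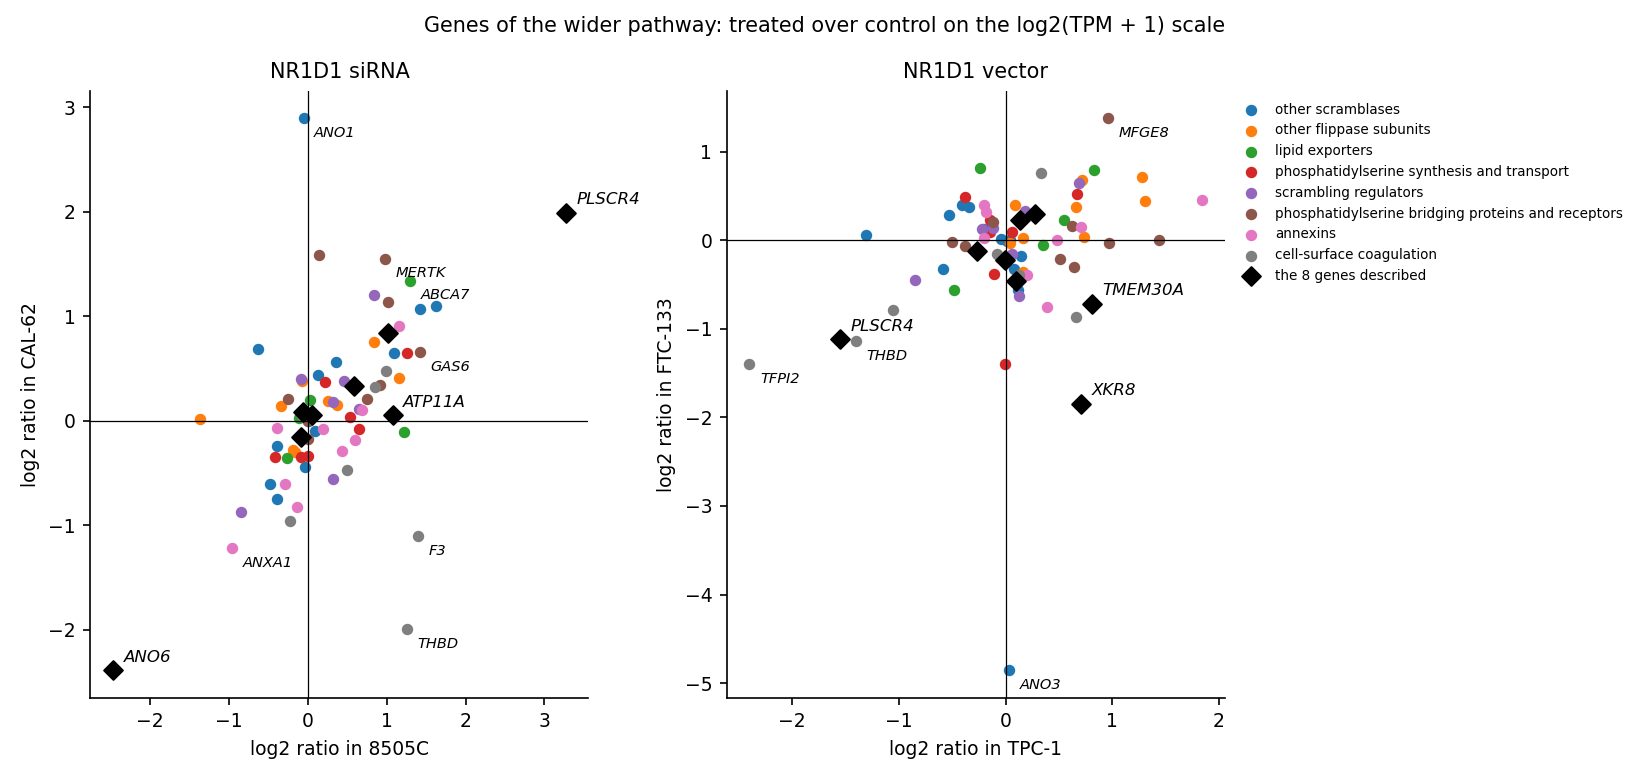
Log2 ratios of the tested genes of 8 pathway lists (coloured dots) and of the 8 genes described (black diamonds), 8505C against CAL-62 on the left and TPC-1 against FTC-133 on the right. PLSCR4 and ANO6 lie at opposite corners of the siRNA panel, and in both siRNA lines 4 of the 67 genes of the lists are 2-fold higher and 0 are 2-fold lower, beside 1.58% and 1.55% of all genes.

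Of 7 scrambling regulators tested, 1 was higher and 1 lower at an unadjusted p after siRNA, beside 4.5% and 7.52% of all genes tested. In both siRNA lines 4 were above 0 and 1 below 0, beside 4039 and 6286 of all 17595 genes, so the list did not share 1 direction. Genes for a partner of XKR8 and for a calcium sensor had higher values in both siNR1D1 libraries. NPTN, which encodes a partner of XKR8 needed for its place in the membrane, had log2 ratios of 0.84 and 1.20 (limma adjusted p = 0.289), the direction of XKR8 in both lines. STIM1, the calcium sensor of the endoplasmic reticulum, had 0.46 and 0.38 (adjusted p = 0.538).

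After siRNA, 1 of 6 lipid exporters tested (ABCA7) and 1 of 7 genes of phosphatidylserine synthesis and transport (OSBPL5) were higher at an unadjusted p and 0 of either list lower, beside 4.5% and 7.52% of all genes tested. ABCA7, a transporter of phospholipids to the outer leaflet, went from 2.13 TPM to 6.69 TPM in 8505C and from 5.26 TPM to 14.8 TPM in CAL-62 (limma adjusted p = 0.262), and was also higher with the vector, with log2 ratios of 0.83 and 0.79 (adjusted p = 1.0). ABCA3 had 1.21 and -0.11, ABCA1, which exports cholesterol and phospholipid, -0.27 and -0.36, and ABCC1 0.02 and 0.19 in the siRNA lines. OSBPL5, which carries phosphatidylserine to the plasma membrane in exchange for a phosphoinositide, had 1.25 and 0.65 (adjusted p = 0.322). Its partner OSBPL8 had -0.42 and -0.35 (adjusted p = 0.703). SACM1L, the phosphatase on which that exchange depends, had 0.21 and 0.36, and PI4KA, the kinase that supplies it, 0.54 and 0.03.

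Annexins and clotting genes, whose products sit on exposed phosphatidylserine or use it, did not share 1 direction. ANXA1, the anti-inflammatory annexin, went from 951.8 TPM to 489.0 TPM in 8505C and from 212.2 TPM to 90.3 TPM in CAL-62 (limma adjusted p = 0.33). ANXA6 went the other way, from 33.0 TPM to 75.0 TPM and from 4.75 TPM to 9.80 TPM (adjusted p = 0.291). ANXA2 had log2 ratios of -0.13 and -0.83, and ANXA7 -0.29 and -0.60. THBD, the thrombomodulin gene, went from 38.7 TPM to 93.9 TPM in 8505C but from 112.0 TPM to 27.3 TPM in CAL-62, and from 54.65 TPM to 20.01 TPM in TPC-1 and from 81.5 TPM to 36.5 TPM in FTC-133. TFPI2, a serine protease inhibitor gene, was lower with the vector in both lines, from 122.2 TPM to 22.4 TPM in TPC-1 and from 1357 TPM to 514.0 TPM in FTC-133 (adjusted p = 0.52). The thrombin receptor F2R had log2 ratios of 0.86 and 0.32 after siRNA and its relative F2RL1 had 0.99 and 0.48 (adjusted p = 0.399).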

How the data were processed

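Total RNA had been extracted with Trizol, per the labels' protocols. Per the submitters' processing notes, Trimmomatic 0.38 did the trimming and featureCounts 2.0.0 the counting, with GRCh38 as the genome. The aligner, annotation release and strand setting are not given in the sources used here. For 8505C and CAL-62 the deposited tables held TPM, each column summing to 1000000. The deposited tables of TPC-1 and FTC-133 were named TPM by the authors but behaved as FPKM: value times GENCODE 29 exon length summed to 1.0014 to 1.0048 times the sum that FPKM gives. All columns were rescaled to 1000000. Symbols were matched for 58472 of 58884 identifiers, and all 8 genes were found.

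Log2 ratios used a pseudocount of 1, over genes whose mean TPM was at least 1. With 1 library per group, 2-fold changes within a line have no test. The siRNA and vector effects were tested with limma 3.58.1 in R 4.3.3, with a term for line, 2 residual degrees of freedom and Benjamini-Hochberg adjustment, after a check on simulated data. Reads were recovered as value times exon length. Of nonzero values, 72.2% to 74.6% were whole within 0.02 of a read, and 92.7% to 93.7% of values of 1 to 10 reads were, so no count model was used and these reads serve only for exact intervals (scipy 1.17.1). Such reads are not independent molecules, and depth was 12.9e6 to 23.2e6 reads a library.

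Some genes that the rule names are not reported here. Named genes were the 8 genes, NR1D1, up to 4 genes per pathway list with the largest mean siRNA log2 ratio in size, and the 5 genes nearest to PLSCR4 and to ANO6 by their 4 log2 ratios. The interferon, marker and neighbouring genes named, and those in the closing section, were chosen after their values were seen. The 8 genes and all lists were chosen with earlier results of these data known. Alternatives changed the pseudocount, the filter, the scaling and the lines used.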

Additional observations from a re-analysis of the deposited data

Results flagged for a closer look

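In 3 of the 8 genes the lines of an approach went opposite ways, with counting intervals of the ratios on opposite sides of 1. Each line had 1 library per group, and none of these differences was tested. Over all 17595 genes tested, 3808 were higher and 3546 lower in both vector lines, and 4039 were higher and 6286 lower in both siRNA lines. The rest shared no direction, so a lack of shared direction was common and is not particular to these genes. The log2 ratio of XKR8 with the NR1D1 vector was 2.56 higher in TPC-1 than in FTC-133 (0.71 and -1.85), where the FTC-133 NR1D1 library rests on 4 recovered reads. For TMEM30A the vector difference of TPC-1 minus FTC-133 was 1.53 (0.81 and -0.72). Its siRNA difference of 8505C minus CAL-62 was -0.15 (-0.06 and 0.08), which is smaller in size than the shift of -0.22 in the median gene of CAL-62. For ATP11B the vector difference of TPC-1 minus FTC-133 was 0.57 (0.10 and -0.47).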

How the results depend on the processing

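No paired analysis was possible because each group has 1 library, so replicate numbers pair nothing, and the fit already holds a term for line. The limma count of 0 held in 18 of 20 alternatives, and with genes of at least 5 mean TPM it was 77 for siRNA and 7 for the vector, with smallest adjusted p of 0.0054 and 0.0244. At an unadjusted p under 0.05 the main counts were 2114 and 784. Of 128 recomputed ratios of the 8 genes, 0 reversed a 2-fold call and 14 moved beyond their counting interval. In CAL-62, PLSCR4 was 2.27 with a trimmed mean of M values and 2.50 without mitochondrial genes, and ANO6 -2.17 and -2.04. With values as deposited, and so on the smaller FPKM scale, PLSCR4 was -0.59 in TPC-1 and -0.83 in FTC-133, and XKR8 -0.88 in FTC-133, each under 2-fold. XKR8 in CAL-62 passed 2-fold at 1.10 with the trimmed mean and 1.29 without mitochondrial genes, and in 8505C missed it at 0.95 with the trimmed mean. With a pseudocount of 0.1, PLSCR3 was 1.06 in TPC-1 and 1.01 in FTC-133, on 2 to 6 reads.

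Of 72 recounts of all genes past 2-fold, 33 stayed within 1.5 times. Counts follow in the order 8505C, then CAL-62, TPC-1 and FTC-133, where the main counts were 1855, 724, 919 and 1329 higher and 821, 1656, 783 and 907 lower, with 278 and 272 in both siRNA lines and 154 and 102 in both vector lines. A pseudocount of 0.1 gave 2818, 1365, 1561 and 2129 higher and 1330, 2581, 1241 and 1553 lower, with 617 and 495 in both siRNA lines and 368 and 227 in both vector lines. A mean of at least 5 TPM gave 1017, 310, 375 and 558 higher, 389 lower in 8505C, 314 in TPC-1 and 378 in FTC-133, 143 higher in both siRNA lines, and 61 higher and 30 lower in both vector lines. Without a filter, 1253 were higher in CAL-62, 1423 in TPC-1 and 2091 in FTC-133, and 1254 lower in 8505C, 1274 in TPC-1 and 1508 in FTC-133. In CAL-62 the trimmed mean gave 1165 higher and 1038 lower. Without mitochondrial genes 1866 were higher and 914 lower in CAL-62, and 644 higher in both siRNA lines. As deposited, 371 were higher and 279 lower in TPC-1, 572 and 383 in FTC-133, and 48 and 22 in both vector lines. Apart from the smaller scale of the deposited FPKM and the number of genes kept, the cause was not tested.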

Other observations

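Some genes of the lists had levels that differed widely between lines, and these were picked after their values were seen. ANO3, a relative of ANO6, was 54.0 TPM in the Vector library of FTC-133 and 0.90 TPM in its NR1D1 library, and at or below 0.02 TPM in the other 6 libraries. ATP8A1, a phosphatidylserine flippase ATPase, was 38.95 and 30.6 TPM in 8505C siControl and siNR1D1 and at or below 0.93 TPM in the other lines. HAVCR1, a phosphatidylserine receptor also known as TIM-1, was 204.6 TPM with Vector and 315.0 TPM with NR1D1 in TPC-1 and at or below 0.13 TPM in the other lines.

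ATP8B1, a flippase ATPase whose loss causes cholestasis, was higher in the NR1D1 library of both vector lines, from 16.9 TPM to 42.4 TPM in TPC-1 and from 23.1 TPM to 38.5 TPM in FTC-133 (limma adjusted p = 0.869). F3, which encodes tissue factor, went from 100.6 TPM to 266.9 TPM in 8505C and from 58.4 TPM to 26.6 TPM in CAL-62 after siRNA, and from 23.9 TPM to 11.03 TPM in TPC-1 and from 513.8 TPM to 297.2 TPM in FTC-133 with the vector. CD14, a monocyte marker, went from 22.35 TPM to 85.2 TPM in 8505C and from 1.01 TPM to 12.2 TPM in CAL-62 after siRNA, while the leukocyte marker PTPRC was at or below 0.06 TPM and CD68 at or below 0.21 TPM in every library. CDH5, an endothelial marker, went from 46.8 TPM to 139.6 TPM in 8505C, and PECAM1, another, from 2.66 TPM to 5.15 TPM there. VWF was at or below 0.42 TPM in every library.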
